A study of Mus musculus with 8 samples.

Results

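The integrated stress response (ISR) genes described here are Atf4, Atf5, Ddit3, Trib3, Chac1, Asns, Psat1, Phgdh, Shmt2 and Sesn2, 10 of the 24552 genes in the table of raw counts. They were chosen by symbol, as the transcription factors of the response and known targets of them, with earlier results of these data known. RNA came from exorbital lacrimal glands (LGs) of female C57BL/6J mice aged 10 or 11 months, 4 fed ad libitum (AL) and 4 on calorie restriction (CR). CR mice had received 40% less food for 4 months, from 6 or 7 months of age, a level reached in steps by the study's methods. No transgene or deletion is named for either group, each labelled sample gave 1 library, and the labels give no collection time, while the study's methods state that CR mice got their food once daily before the dark phase. The study describes 2 cohorts of mice on different chow. In 1 of them the chow of CR mice held 40% more vitamins and micronutrients than that of AL mice. The labels do not say from which cohort a library came, so chow may differ between the diets compared. Reads of 75 bases came from the 3' ends of transcripts, so levels are compared between libraries and not between genes.

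In the ISR, kinases that sense amino acid shortage, unfolded protein in the endoplasmic reticulum (ER), viral RNA or heme shortage phosphorylate the translation initiation factor eIF2. Translation then slows in general, while the mRNAs of Atf4, Atf5 and Ddit3 are translated better through their upstream open reading frames. The ATF4 protein pairs with C/EBP factors on composite C/EBP-ATF response elements and drives genes for amino acid synthesis and transport, tRNA charging and, under lasting stress, cell death. Because ATF4 is regulated mostly in translation, its mRNA level does not measure its activity, and secretory glands run this response beside the unfolded protein response.

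Psat1, an enzyme of serine synthesis, rose 2.48-fold and was the only gene of the 10 to pass the thresholds in edgeR's test, which called 1.98% of all genes. It kept an adjusted p under 0.05 in 3 of 8 fits with a library left out. With a covariate for parotid transcripts, described below, it did not (0.361 by edgeR's test). DESeq2 called 3 (Psat1, Asns and Atf5), with 6.26% of all genes tested, and limma voom 2 (Psat1 and Asns), with 3.54%. Asns, which makes asparagine, was 1.78-fold higher but missed the adjusted threshold of edgeR's test. All its CR libraries were over all AL libraries, as for 4.63% of all genes. Atf4 mRNA was 1.34-fold lower in the mean, with all CR libraries under all AL libraries, as for 5.16% of all genes, and it missed the threshold too. Atf5, Ddit3, Trib3 and Shmt2 had higher means in CR with overlapping libraries, Chac1 and Sesn2 had lower means, and Phgdh had nearly equal means.

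The libraries held from 12051881 to 22156511 counts. Levels are given as CPM, the count relative to a library size scaled by relative log expression factors, and 3 counts, used as the floor, equal 0.152 to 0.231 CPM. Reads carry no molecular identifiers, so this floor reflects counting error alone. In AL, 68.2 to 69.2% of the reads fell on the 10 most counted genes, and in CR 54.0 to 65.8%. LG secretory transcripts (8 markers, among them Obp1a and Lcn11) summed to between 212057 and 270036 CPM in AL and 78702 and 228699 CPM in CR, with none at 0 in all libraries. The 7 parotid markers, among them Amy1, Bpifa2 and Prb1, stood between 239 and 23626 CPM in AL and between 18052 and 232325 CPM in CR. The white adipose list of 6 genes stood between 7.48 and 18.0 CPM in AL and 23.4 and 93.8 CPM in CR. Transcripts typical of parotid gland and fat were thus present in amounts that moved with diet. In bulk tissue, fewer cells of a type and less RNA per cell cannot be told apart. Nothing in the labels ties libraries to litters or cages, so the p-values measure the spread between these samples.

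CR was compared with AL by the quasi-likelihood test of edgeR, adjusted after Benjamini and Hochberg, in the 11211 genes that passed its filter on low counts, and 9 of the 10 ISR genes passed. Calling a gene took a fold change of 1.5 or more with an adjusted p under 0.05. Of the 9, 1 was called higher in CR, where 1.2% of all genes tested were called higher, and 0 were called lower, where 0.785% of all genes were. In either direction 1.98% of all genes were called. At an unadjusted p under 0.05, the test counted 6 of the 9 (Atf5, Ddit3, Trib3, Asns and Psat1 higher, Atf4 lower), and 16.7% of all genes tested. Since the genes were chosen with earlier results of these data known, these shares are not a test of the set. The log2 fold change was positive in 7 and negative in 2, with a median of 0.83 against 0.01 over all genes tested. The libraries of both diets did not overlap for 3 of them, Atf4, Asns and Psat1, as for 9.79% of all genes. In 2 of these every CR library was above every AL library, as in 4.63% of all genes, and in 1, Atf4, every CR library was below, as in 5.16%.

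**Figure D1:**
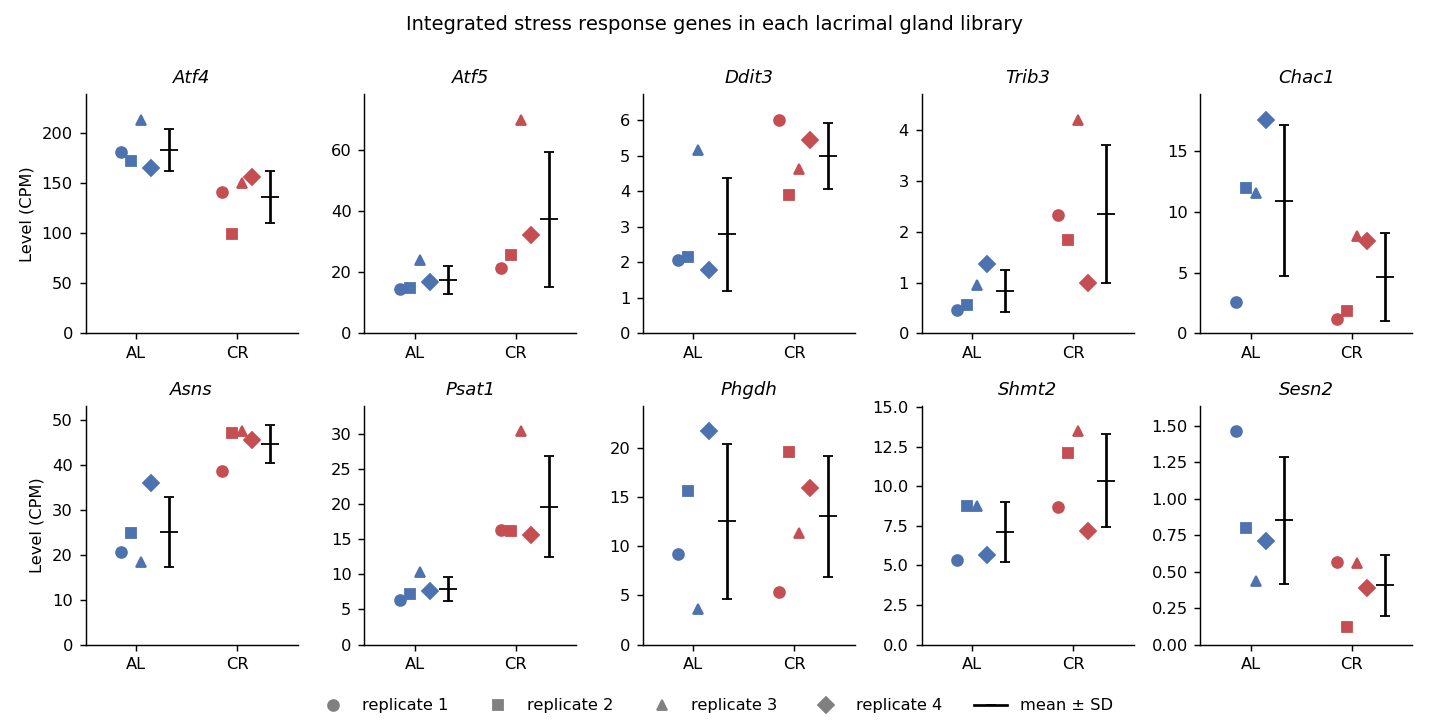
Level in CPM of each of the 10 genes in the 4 AL and 4 CR libraries, with the marker shape giving the replicate number and bars the mean ± SD of 4 libraries. Only Atf4, Asns and Psat1 separate the diets fully, and CR replicate 3 is the highest of all 8 libraries in 5 of the 10 panels.

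Promoter sequences of RefSeq (GRCm38.p6, 250 bases before to 50 after a start site) matched all 10 genes, in 12 windows since Atf5 and Psat1 have more than 1. They were searched on both strands for TGATGNAA, the core of the element that ATF4 pairs with C/EBP factors on. The letters are in 3 of these 12 windows, those of 3 different genes, and in 3.969% of the 32851 promoter windows of that length. Since the 10 genes were chosen as factors of the response and known targets, no conclusion is drawn from these shares. The exact form TGATGCAA, in 0.8949% of all windows, is in that of Chac1. Stretches with the motif in capitals are shown, because the 3 genes that carry it differed in direction between the diets (Asns and Trib3 with higher means in CR, Chac1 with a lower one). In Chac1 and Asns they are the 250 bases before the start site, at chr2:119350992-119351241 on the plus strand and chr6:7693210-7693459 on the minus strand. In Trib3 the motif begins 14 bases past the start site, and 30 bases around it are given, chr2:152344028-152344057 on the minus strand.
Chac1: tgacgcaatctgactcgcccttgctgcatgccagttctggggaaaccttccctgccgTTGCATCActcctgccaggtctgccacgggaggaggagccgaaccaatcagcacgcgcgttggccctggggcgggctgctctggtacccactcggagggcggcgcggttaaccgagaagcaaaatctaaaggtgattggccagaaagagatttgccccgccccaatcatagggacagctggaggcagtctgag
Asns: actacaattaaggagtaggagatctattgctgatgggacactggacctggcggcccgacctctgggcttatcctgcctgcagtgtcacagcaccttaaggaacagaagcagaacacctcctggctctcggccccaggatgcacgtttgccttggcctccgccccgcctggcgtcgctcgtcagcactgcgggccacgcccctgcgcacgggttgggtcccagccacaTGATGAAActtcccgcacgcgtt
Trib3: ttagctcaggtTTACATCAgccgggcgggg
The motif lies 193 bases before the start site of Chac1 and 23 bases before that of Asns. In Chac1 and Trib3 it reads on the opposite strand to the gene, so the capitals show its reverse complement. The windows of the other 7 genes, Psat1 among them, do not hold these letters. A match is a stretch of letters and not a measured binding site, and elements outside the windows were not searched.

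Among the transcription factors, Atf4 (chromosome 15, 80255184 to 80257545, GRCm38) encodes the main effector of the response. In AL, replicates 1 to 4 stood at 181, 172, 213 and 165 CPM, and in CR they stood at 141, 98.9, 150.2 and 156 CPM, the order kept for every gene. Every CR library was below the lowest AL library, and CR replicate 2 was lowest of all. The means were 183 ± 21.2 CPM (SD, n = 4) in AL and 137 ± 26.0 CPM (SD, n = 4) in CR. Atf4 had a log2 fold change of -0.42 (SE 0.19) and an adjusted p of 0.293 by edgeR's test, so it was not called.

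Atf5 (chromosome 7, 44812256 to 44816658) encodes a related bZIP factor of the mitochondrial and amino acid responses. It was read at 14.4, 14.8, 24.1 and 16.8 CPM in AL and at 21.4, 25.5, 69.9 and 32.3 CPM in CR. CR replicate 3 stood far over the next library, and 3 of 4 CR libraries exceeded every AL library. For Atf5 the log2 fold change was 1.09 (SE 0.34, adjusted p = 0.122 by edgeR's test), and it was 0.60 without CR replicate 3. Exons of Nup62 and Il4i1 on the other strand overlap those of Atf5, and the strand setting of the counting is not given in the sources used here. DESeq2 called Atf5 higher, with an adjusted p of 0.0364. So did edgeR with a replicate block, described below (log2 fold change 0.96, adjusted p = 0.00780), though whether replicate numbers mark pairs is not known.

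Ddit3 (chromosome 10, 127290793 to 127296291), which encodes CHOP, a factor of prolonged ER stress, was a gene of low counts, between 27 and 98 per library. Its level was 2.08, 2.14, 5.15 and 1.77 CPM in AL and 6.02, 3.91, 4.64 and 5.44 CPM in CR. AL replicate 3 lay within the CR range, and the other 3 AL libraries lay under every CR library. By edgeR's test Ddit3 had a log2 fold change of 0.85 (SE 0.37, adjusted p = 0.273). Without AL replicate 3 it was 1.32, with an adjusted p of 0.0817.

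The feedback and effector genes that answer ATF4 and CHOP had means in both directions. Trib3 (chromosome 2, 152337425 to 152344060), a pseudokinase that restrains ATF4 and AKT signalling, had only 6 to 68 counts per library. Its level was 0.462, 0.551, 0.944 and 1.37 CPM in AL and 2.34, 1.84, 4.21 and 1.0 CPM in CR. In CR, replicates 1 to 3 exceeded every AL library, whereas replicate 4 lay between AL replicates 3 and 4. The log2 fold change, 1.47 (SE 0.54, adjusted p = 0.187 by edgeR's test), was the highest of the 9. Its 95% interval reached from 0.29 to 2.64.

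Chac1 (chromosome 2, 119351242 to 119354326), which degrades glutathione and is a sharp marker of this response, went the other way in its means. It was read at 2.54, 12.0, 11.5 and 17.6 CPM in AL and at 1.20, 1.84, 7.98 and 7.61 CPM in CR. Within each diet the libraries split, with AL replicate 1 and CR replicates 1 and 2 low, and AL replicate 1 under both of the higher CR libraries. The means were 10.9 ± 6.22 CPM in AL and 4.66 ± 3.64 CPM in CR (SD, n = 4 each), so the SD was 57.0 and 78.1% of its mean. Chac1 had a log2 fold change of -1.23 (SE 0.61), with an adjusted p of 0.345 by edgeR's test and a 95% interval from -2.56 to 0.10. With a replicate block, described below, it was called lower (-1.35, adjusted p = 0.0280 by edgeR's test), though whether replicate numbers mark pairs is not known.

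Sesn2 (chromosome 4, 132492804 to 132510456) encodes Sestrin2, a leucine-binding inhibitor of mTORC1 signalling. It had 19, 13, 6 and 14 counts in AL and 8, 2, 9 and 7 counts in CR, too few for edgeR's filter. These correspond to 1.46, 0.796, 0.435 and 0.709 CPM in AL and 0.566, 0.118, 0.557 and 0.389 CPM in CR, and CR replicate 2 was at less than the floor. The AL libraries 1, 2 and 4 were above all CR libraries, and AL replicate 3 was within their range. An exact permutation test of the mean CPM, two-sided, gave p = 0.0857 (4 against 4 allow no less than 0.0286), so no difference was detected.

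Of the 9 genes tested, the lowest p-values belonged to the amino acid enzymes Psat1 and Asns. Asns (chromosome 6, 7675165 to 7693209) encodes asparagine synthetase, which converts aspartate and glutamine to asparagine and glutamate. It was read at 20.6, 24.8, 18.4 and 35.9 CPM in AL and at 38.5, 47.0, 47.4 and 45.4 CPM in CR. All CR libraries were above all AL libraries, although AL replicate 4 came close to CR replicate 1. The means were 24.9 ± 7.77 CPM in AL and 44.6 ± 4.16 CPM in CR (SD, n = 4 each). Asns had a log2 fold change of 0.83 (SE 0.21) and an adjusted p of 0.0656 by edgeR's test, just over the threshold. Among other fits, it passed with DESeq2 (adjusted p = 0.0137), with limma voom (0.0272) and with no filter on low counts (0.0426). It also passed with a replicate block, described below (0.0120), and without AL replicate 4 (log2 fold change 1.06, adjusted p = 0.0226). With any other library left out it did not pass, and over the 8 such fits the log2 fold change ranged from 0.71 to 1.06 and the adjusted p from 0.0226 to 0.180.

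Psat1 (chromosome 19, 15905123 to 15925059) encodes phosphoserine aminotransferase, the middle enzyme of the route from glycolysis to serine. It was read at 6.39, 7.16, 10.4 and 7.60 CPM in AL and at 16.3, 16.2, 30.4 and 15.6 CPM in CR. All CR libraries were above all AL libraries, 3 of them close together and replicate 3 well above. The means were 7.88 ± 1.74 CPM in AL and 19.6 ± 7.19 CPM in CR (SD, n = 4 each). Psat1 had a log2 fold change of 1.31 (SE 0.26, 95% interval from 0.74 to 1.88) and an adjusted p of 0.0298 by edgeR's test. With a library left out, it ranged from 1.02 to 1.47. The adjusted p then ranged from 0.00901 to 0.0987, and the call was lost without AL replicate 1 (0.0830), 2 (0.0987) or 4 (0.0577) or CR replicate 2 (0.0689) or 3 (0.0726).

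Phgdh (chromosome 3, 98313171 to 98339969), which encodes the first and committing enzyme of the same route, showed no difference that could be detected. It was read at 9.24, 15.6, 3.56 and 21.7 CPM in AL and at 5.31, 19.5, 11.3 and 15.9 CPM in CR. The AL libraries 3 and 4 were the extremes of all 8, and the CR libraries lay wholly inside the AL range. By edgeR's test Phgdh had a log2 fold change of 0.05 (SE 0.48, adjusted p = 0.979), and its 95% interval was wide, from -0.99 to 1.09. The sign turned to negative without AL replicate 1 or 3 or CR replicate 2 or 4. Its 3' end shares 27.8% of the 75-base windows of the last 600 bases with other annotated genes, Gm5847 and Gm7901 among them, so its count is uncertain. For Psat1, Asns, Atf4, Ddit3, Trib3, Chac1 and Sesn2 that share was 0%.

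Psph, the last enzyme of the route, named here to complete it, had a log2 fold change of 0.25 (SE 0.66, adjusted p = 0.905 by edgeR's test). Of the serine route, the middle enzyme was called and the first and last were measured with wide errors. Whether the change of Psat1 differed from that of Phgdh was not tested. Psat1 as a percent of Phgdh ran from 35.0 to 292% in AL and from 82.7 to 307% in CR, and the diets overlapped.

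Shmt2 (chromosome 10, 127517123 to 127522444), which encodes the mitochondrial enzyme that splits serine to glycine and a one-carbon unit, was read at 5.31, 8.76, 8.78 and 5.67 CPM in AL. In CR it was read at 8.71, 12.1, 13.5 and 7.17 CPM. CR replicates 2 and 3 were above every AL library, and CR replicates 1 and 4 were within the AL range. Shmt2 had a log2 fold change of 0.54 (SE 0.27), with an adjusted p of 0.351 by edgeR's test. Exons of Ndufa4l2 on the other strand overlap those of Shmt2.

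**Figure D2:**
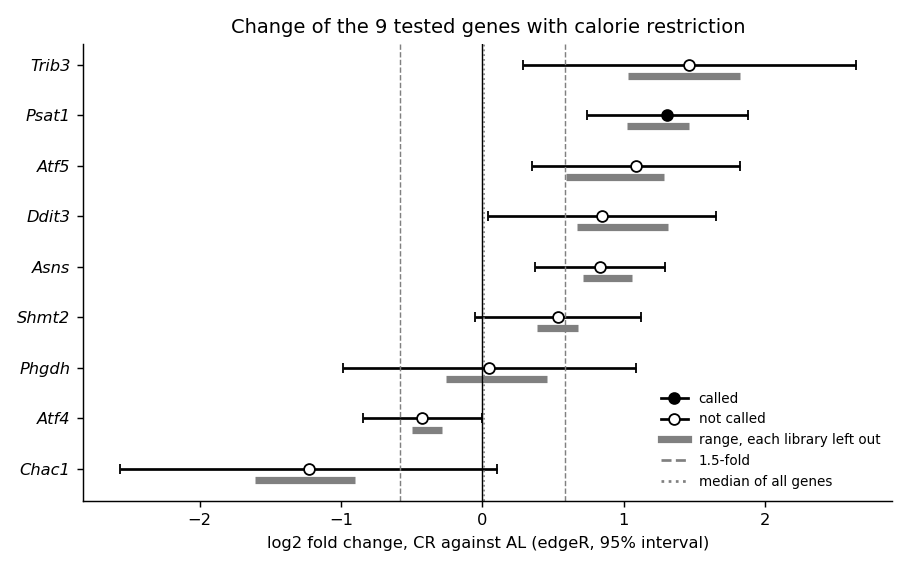
Log2 fold change of CR against AL for the 9 genes tested, with 95% intervals from edgeR (circles and lines) and the range when each library is left out (grey bars). Psat1 (1.31) is the only filled circle, the intervals of Phgdh, Shmt2 and Chac1 cross 0, and that of Atf4 ends just under it.

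Each level was also expressed as a percent of Atf4 in the same library, a measure that no scaling of libraries can move. It was added after the data had been seen, it carries the lower mean of Atf4 itself, and no test was run on it. Psat1 ran from 3.52 to 4.87% of Atf4 in AL and from 9.94 to 20.2% in CR. Asns ran from 8.64 to 21.7% in AL and from 27.2 to 47.5% in CR, and Atf5 from 7.94 to 11.3% and from 15.2 to 46.5%. Ddit3, which overlapped in CPM, ran from 1.07 to 2.42% in AL and from 3.09 to 4.26% in CR. For these 4 of the 8 genes tested beside Atf4, every CR library was above every AL library, as for 14.9% of all genes tested. Shmt2 (2.93 to 5.09% against 4.58 to 12.2%), Trib3, Phgdh, Chac1 and Sesn2 overlapped.

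**Figure D3:**
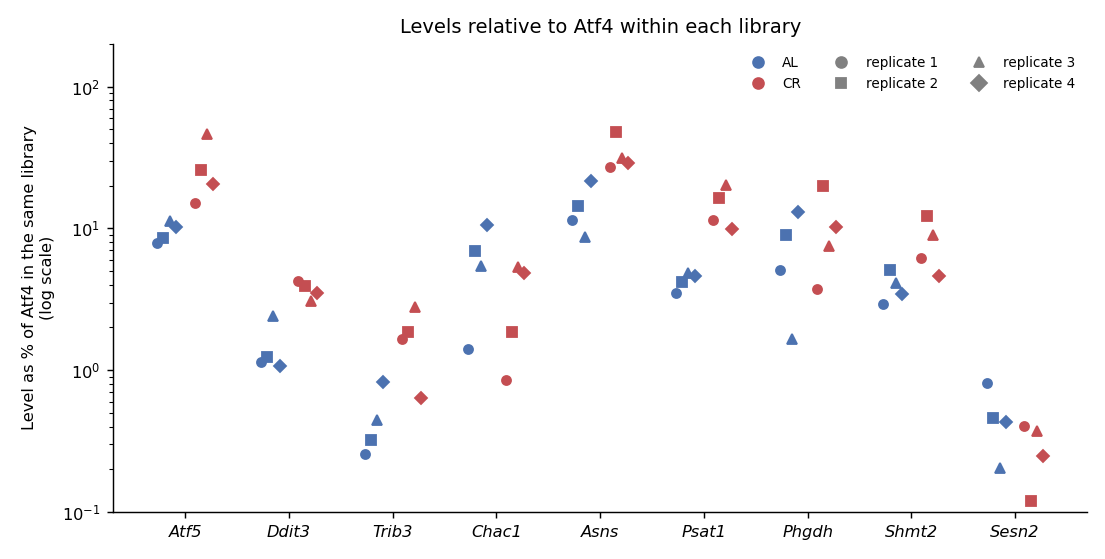
Level of each gene as a percent of Atf4 in the same library on a log scale, 4 AL and 4 CR libraries each, with the marker shape giving the replicate number. Atf5, Ddit3, Asns and Psat1 separate the diets, with Ddit3 at most 2.42% in AL and at least 3.09% in CR, and Asns at most 21.7% and at least 27.2%.

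The genes also varied among the libraries of a diet. CR replicate 3 was the highest CR library in 6 of the 10 genes, Atf5, Trib3, Chac1, Asns, Psat1 and Shmt2. AL replicate 3 was the highest AL library in 5, Atf4, Atf5, Ddit3, Psat1 and Shmt2, and the lowest in Asns, Phgdh and Sesn2. AL replicate 4 was the highest AL library in Trib3, Chac1, Asns and Phgdh. With replicate 3 of both diets left out, a choice made after seeing the data, Psat1 had a log2 fold change of 1.18 (adjusted p = 0.0749 by edgeR's test), Atf5 0.78 (0.201) and Asns 0.68 (0.319). With replicate 4 of both diets left out, also chosen after seeing the data, Asns passed (log2 fold change 1.05, adjusted p = 0.00675) and so did Psat1 (1.38, 0.0166).

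Parotid transcripts moved with diet as well, and their part in the differences of the ISR genes was not tested. CR replicate 4 had the lowest parotid sum of the CR libraries, 18052 CPM, and its Psat1 (15.6 CPM) and Asns (45.4 CPM) were above every AL library. That sum lay within the AL range through Amy1 and Bpifa2, while the other 5 markers were above every AL library in CR replicate 4, as in all CR libraries. AL replicate 1, the AL library richest in parotid markers with 23626 CPM, had the lowest Psat1 of all. AL replicate 4, at 239 CPM the poorest, had the highest Asns of the AL libraries. Chac1 was highest in AL replicate 4 as well, and lowest in AL replicate 1 and CR replicates 1 and 2, the libraries of each diet richest in parotid markers. It did not follow the parotid order throughout, since CR replicate 3 (184187 CPM of parotid markers) had 7.98 CPM and CR replicate 4 had 7.61 CPM. With a covariate for these markers, their averaged log2 CPM, Psat1 had a log2 fold change of 1.54 (adjusted p = 0.361 by edgeR's test), Asns 1.54 (0.250) and Atf4 -0.29 (0.808), and Chac1 turned to 1.46 (0.555). This average ran from 1.07 to 6.95 in AL and from 8.87 to 12.7 in CR, so that it separated the diets, and in that fit 4 of all genes were called.

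**Figure D4:**
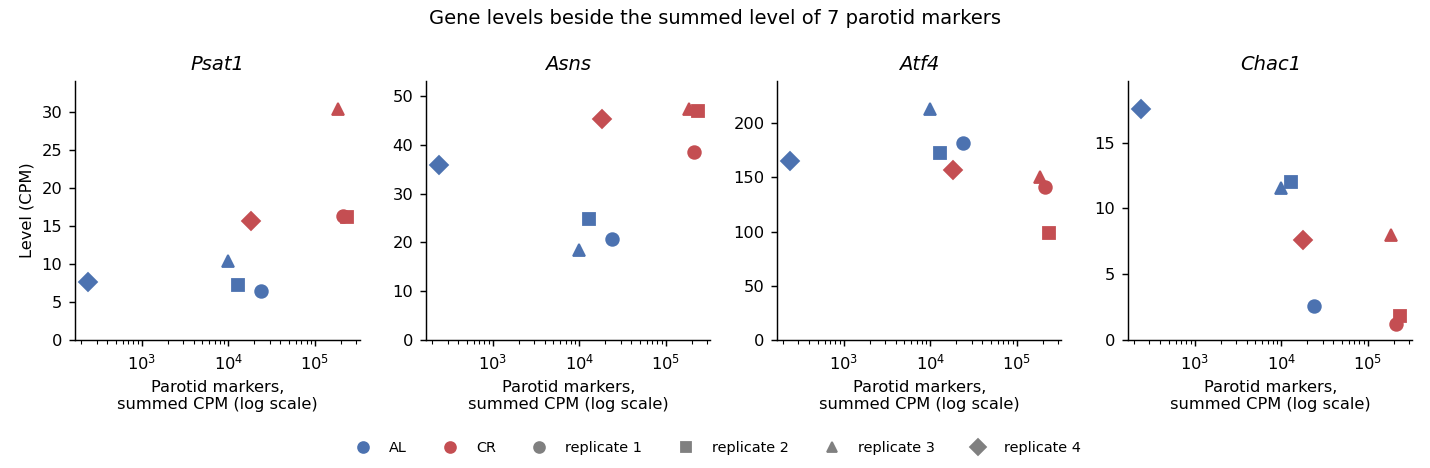
Level in CPM of Psat1, Asns, Atf4 and Chac1 against the summed CPM of the 7 parotid markers on a log scale, 1 point for each of the 4 AL and 4 CR libraries. CR replicate 4, at 18052 CPM of parotid markers, lies among the AL libraries on this sum, which Amy1 and Bpifa2 dominate, and not on the other 5 markers, and it is above all AL libraries for Psat1 and Asns.

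The rest of the pathway was described by 11 lists with 125 further genes in the table, of which 118 passed the filter. Of these, 2 were called higher and 1 lower (2.54%), and 25 had an unadjusted p under 0.05 (21.2%), near the shares of 1.98% and 16.7% over all genes. The log2 fold change was positive in 65 and negative in 53, with a median of 0.05. The genes called by edgeR's test were Ddit4, Eif4ebp1 and Mthfd1l, and calls in the lists that follow are those of this test unless another tool is named.

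At the sensing end, none of the 9 eIF2 kinases and phosphatase regulators was called by edgeR, DESeq2 or limma voom, and 1 had an unadjusted p under 0.05 by edgeR. Their median log2 fold change was 0.24, with Eif2ak2 (PKR, the kinase that binds double-stranded RNA) at 0.74 (SE 0.24, adjusted p = 0.139 by edgeR's test) and Dnajc3, an inhibitor of these kinases, at -0.16. Among 8 subunits of eIF2 and its exchange factor eIF2B, 0 were called by each of the 3 tools and 0 had an unadjusted p under 0.05 by edgeR, and values ran from -0.44 in Eif2s1 to 0.77 in Eif2b1. Among 8 bZIP partners, edgeR called 0 and counted 1 at an unadjusted p under 0.05, limma voom called 0, and DESeq2 called Cebpb (adjusted p = 0.0272). Cebpb, which pairs with ATF4, stood at 1.92, 1.41, 1.81 and 1.92 CPM in AL and 3.54, 3.79, 3.22 and 4.28 CPM in CR. Its diets did not overlap, and its log2 fold change of 1.06 (SE 0.30) had an adjusted p of 0.0986 by edgeR's test. Atf3, a factor that ATF4 induces, had the lowest value of that list, -0.58 (SE 0.40).

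Of 22 other targets of ATF4 and CHOP that were tested, 1 rose and 1 fell, and the median log2 fold change was 0.10. At an unadjusted p under 0.05 edgeR counted 5, against 16.7% of all genes tested. DESeq2 and limma voom also called Herpud1 higher, named after its values were seen. Its log2 fold change was 0.89 (SE 0.22, adjusted p = 0.0628 by edgeR's test), with no overlap between the diets. Eif4ebp1, the inhibitor of cap-dependent translation 4E-BP1, stood at 51.6, 61.1, 53.9 and 72.9 CPM in AL and at 85.6, 151, 143 and 108 CPM in CR. All CR libraries were above all AL libraries, and the log2 fold change was 1.02 (SE 0.21, adjusted p = 0.0335 by edgeR's test). Ddit4 (REDD1, an inhibitor of mTORC1 also induced by glucocorticoids and hypoxia) stood at 37.3, 40.4, 32.6 and 33.8 CPM in AL and at 9.84, 11.3, 14.2 and 18.4 CPM in CR. All CR libraries were far below all AL libraries, and its log2 fold change of -1.43 (SE 0.21, adjusted p = 0.00697) kept an adjusted p under 0.05 with each of the 8 libraries left out, though not without replicate 3 of both diets (log2 fold change -1.50, adjusted p = 0.0636) or with the parotid covariate (-1.14, 0.361). Slc7a5, a transporter of large neutral amino acids, had the highest value of the list, 1.55 (SE 0.77, adjusted p = 0.345), with 37.8 CPM in AL replicate 4 and 123 CPM in CR replicate 4 against at most 28.2 CPM elsewhere.

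Among genes for tRNA charging edgeR and limma voom called none, and DESeq2 called Cars lower (adjusted p = 0.0494). Of the 12 cytosolic aminoacyl-tRNA synthetases that ATF4 is known to induce, 4 had an unadjusted p under 0.05 by edgeR (16.7% of all genes tested had), 9 had negative values, as did 5477 of all 11211 genes tested, and the median log2 fold change was -0.19. Gars, for glycine, was highest at 0.45 (SE 0.19, adjusted p = 0.259 by edgeR's test) and Cars, for cysteine, lowest at -0.68 (SE 0.20, adjusted p = 0.107). Of 8 other cytosolic synthetases 0 were called by each tool, 5 had an unadjusted p under 0.05 by edgeR, against the same 16.7% of all genes, and 4 had negative values, from -0.59 in Farsb, for phenylalanine, to 0.55 in Vars, for valine.

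Among 16 tested serine, glycine and one-carbon enzymes beside the 10 genes, 1 rose, and 3 had an unadjusted p under 0.05 by edgeR. Mthfd1l, which makes formate in mitochondria from the one-carbon units that SHMT2 releases, stood at 2.31, 1.96, 2.83 and 2.03 CPM in AL and at 5.17, 4.50, 11.3 and 11.2 CPM in CR. The diets did not overlap, and CR replicates 3 and 4 were the highest. Its log2 fold change was 1.82 (SE 0.36, adjusted p = 0.0277 by edgeR's test). With a library left out, Mthfd1l and Eif4ebp1 each kept an adjusted p under 0.05 in 3 of 8 fits, losing it without AL replicate 1, 2 or 3 or CR replicate 3 (0.0763, 0.0948, 0.0549 and 0.0878 for Mthfd1l, 0.0953, 0.103, 0.0933 and 0.0990 for Eif4ebp1), and also without AL replicate 4 for Mthfd1l (0.0564) and without CR replicate 2 for Eif4ebp1 (0.116). The median log2 fold change of the list was 0.08.

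Of 7 close relatives of the genes edgeR called 0 and counted 4 at an unadjusted p under 0.05, against 16.7% of all genes, with values in both directions. Sesn1 stood at 1.31, 1.22, 1.45 and 2.43 CPM in AL and at 3.68, 6.81, 3.40 and 2.94 CPM in CR, a log2 fold change of 1.37 (SE 0.39, adjusted p = 0.0917 by edgeR's test and 0.0203 by DESeq2) with no overlap. Sesn3 was at -0.66 (SE 0.27, adjusted p = 0.235), and Sesn2 had the lower mean in CR. Sestrins act on mTORC1 through the GATOR complexes, of whose 8 subunits 0 were called by each tool and 0 had an unadjusted p under 0.05, with values between -0.61 (Wdr59) and 0.37 (Mios). Of 18 genes of the ER unfolded protein response edgeR called 0 and counted 2 at an unadjusted p under 0.05. DESeq2 and limma voom called Herpud1 higher, named here after its values were seen. The list had a median of -0.17 and values from -0.66 in Pdia4, a disulfide isomerase, to 0.90 in Syvn1, an ER ubiquitin ligase whose CR libraries ran from 5.10 to 101 CPM. Of 8 mitochondrial chaperones and proteases 0 were called by each tool and 1 had an unadjusted p under 0.05 by edgeR, with values from -0.19 in Clpp to 0.49 in Hspa9.

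**Figure D5:**
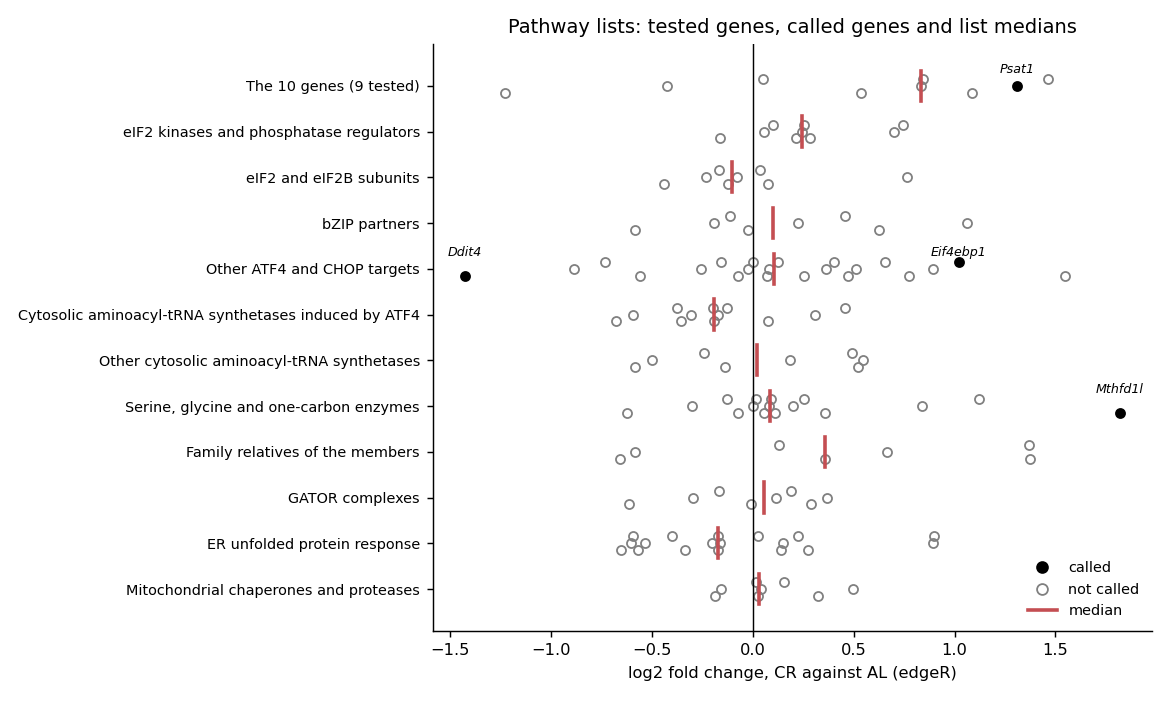
Log2 fold change of CR against AL for each tested gene of the 10 ISR genes and of the 11 pathway lists, with called genes filled and named and the median of each list as a red bar. The bar of the 10 genes stands at 0.83 and those of the lists between -0.19 and 0.36, with Psat1, Eif4ebp1 and Mthfd1l called higher and Ddit4 lower.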

How the data were processed

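The raw counts used here were deposited by the authors, who ran cutadapt, FastQC, STAR against mm10 and, for the counts per gene, HTSeq. Their annotation and strand setting are not given in the sources used here. A deposited table of log2 normalized values made from these counts with DESeq2 was not used. From 24557 rows, 5 repeated symbols were dropped. Totals ranged from 12051881 to 22156511 counts, and the biological coefficient of variation was 34.7%. CR was compared with AL, as labelled, in edgeR 4.0.16 (R 4.3.3) with relative log expression factors, filterByExpr and quasi-likelihood F tests, adjusted after Benjamini and Hochberg over 11211 genes. Standard errors were obtained by dividing a log2 fold change by the root of its F. Replicate numbers were not treated as pairs. A two-sided exact permutation test served for Sesn2, which the filter left out. The pipeline was tested on simulated data. Promoters came from RefSeq (GRCm38.p6), positions from RefSeq genes of the same assembly, and overlaps and shared 75-base windows from GENCODE vM21 on GRCm38, the assembly of mm10.

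The 10 genes and all lists were chosen with earlier results of these data known. Named are the 10 genes, every called gene and the highest and lowest log2 fold change of each pathway list, and marker genes, except 1 pathway gene that is not reported here. The marker lists beside those reported were submandibular and sublingual glands, acinar cells, plasma cells, B cells, T cells, macrophages, fibroblasts, endothelial cells, myoepithelial cells and skeletal muscle. Alternatives tried were DESeq2 1.42.0, limma 3.58.1 voom with sample quality weights, upper-quartile or TMM factors, robust dispersions, no filter, a minimum of 10 counts in every library, no fold threshold, a replicate block, each library left out, a parotid covariate, removal of the 50 most counted genes and counts subsampled to the smallest library.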

Additional observations from a re-analysis of the deposited data

Results flagged for a closer look

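Within a diet, 1 library lay apart from the other 3 by Dixon's criterion for 4 values in 3 of 64 groups checked, over the 10 genes and 22 named pathway genes, and chance flags about 1 group in 20. Psat1 stood at 30.4 CPM in CR replicate 3 against 15.6 to 16.3 CPM in the other CR libraries. Ddit3 stood at 5.15 CPM in AL replicate 3 against 1.77 to 2.14 CPM in the other AL libraries. Gars stood at 59.8 CPM in CR replicate 3 against 37.3 to 38.8 CPM in the other CR libraries.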

How the results depend on the processing

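Of the 10 genes 1 was called, 222 of all genes and 3 of the pathway lists. The counts were 3, 702 and 7 with DESeq2, 2 and 397 of the first and second with limma voom, and 2 and 436 with no filter on low counts. With a library left out they ranged from 0 to 1, from 61 to 700 and from 1 to 8. The parotid covariate left 0, 4 and 0, with 1200 genes at an unadjusted p under 0.05. Chosen after seeing the data, leaving out replicate 3 of both diets gave 0, 12 and 0, and leaving out replicate 4 of both gave 2, 656 and 9. Apart from the replicate block given last, the alternatives not named so far kept all 3 counts within 1.5 times. No scaling moved the median of all genes by over 0.1.

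Over 650 repeats of the log2 fold changes of the tested and named genes, the direction turned in 11. For Phgdh it was -0.069 with limma voom, -0.19 without replicate 3 of both diets, and from -0.26 to 0.46 with a library left out. With the parotid covariate it turned for Chac1 (1.46), Dnajc3 (0.15) and Mios (-0.16). For Syvn1 it was -0.040 with limma voom, and from -0.50 to 1.71 with a library left out. The cause was not tested.

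A replicate block called 4 of the 10 genes (Atf5, Asns and Psat1 higher, with adjusted p of 0.00780, 0.0120 and 0.00143, and Chac1 lower, 0.0280), 700 of all genes and 8 of the lists. The deviations of AL and CR libraries that share a number correlated at 0.149, 0.0795, 0.245 and 0.462. The labels do not say that the numbers mark pairs, and these correlations do not settle it, so the main test did not pair libraries. AL replicates 1, 2 and 4 correlated best with their own number, AL replicate 3 with CR replicate 1 (0.324). The shared windows of Phgdh made up 36.0% in the last 300 bases. Counts stayed under 100 in every library for Trib3, Ddit3 and Sesn2 and in some for Chac1, Phgdh, Shmt2 and Psat1.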

Other observations

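The summed levels of the other marker lists, whose part in the results was not tested, were as follows, with calls by edgeR's test. Macrophage markers (6 genes, 1 called lower) summed to between 70.8 and 222 CPM in AL and 44.8 and 83.9 CPM in CR. Fibroblast markers (5 genes, 2 called lower) summed to between 132 and 208 CPM in AL and 117 and 175 CPM in CR. Acinar and epithelial markers (5 genes, 0 called) summed to between 454 and 465 CPM in AL and 545 and 630 CPM in CR. Plasma cell markers summed to between 78.9 and 95.4 CPM in AL and 59.9 and 111 CPM in CR, and 0 of these were called. Derl3 made up most of that sum, with a mean of 59.3 CPM in AL and 68.6 CPM in CR. Jchain (log2 fold change -1.18), Mzb1 (-1.65) and Sdc1 (-0.66) were lower in CR, each at an unadjusted p under 0.05 by edgeR's test. DESeq2 called Jchain. B cell markers (4 genes, none tested) summed to between 0.658 and 7.16 CPM in AL and 0.142 and 0.742 CPM in CR. T cell markers (5 genes, 1 tested and 0 called) summed to between 1.62 and 8.49 CPM in AL and 0.778 and 1.72 CPM in CR. Endothelial, myoepithelial and skeletal muscle markers gave no called gene. Endothelial markers summed to between 7.54 and 11.6 CPM in AL and 11.1 and 14.5 CPM in CR. Myoepithelial markers (3 genes, all lower, 2 at an unadjusted p under 0.05) summed to between 59.3 and 86.7 CPM in AL and 35.3 and 62.0 CPM in CR. Skeletal muscle markers summed to between 0.429 and 9.01 CPM in AL and 1.63 and 49.6 CPM in CR, highest in CR replicates 2 (49.6 CPM) and 4 (31.3 CPM). Submandibular and sublingual markers summed to between 1.82 and 486 CPM in AL and 256 and 5733 CPM in CR, with Smgc at 0 in every library.

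Replicate 4 of both diets shared high levels of Slc7a5 (37.8 and 123 CPM) and Syvn1 (42.8 and 101 CPM), the highest of their diet in each case. Syvn1 stood between 3.77 and 18.7 CPM in the other AL libraries and between 5.10 and 26.9 CPM in the other CR libraries. Both genes were named by the rule for the highest change of their list, and the pattern was seen after the fact.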
